A study of Mus musculus with 35 samples.

Results

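The genes described here are 10 members of the circadian clock, Per1, Per2, Per3, Cry1, Cry2, Arntl, Clock, Nr1d1, Nr1d2 and Dbp, in primary mouse embryonic fibroblasts (MEFs) after a change of medium with or without methyl methanesulfonate (MMS). Each gene was taken as the probe set that carries its symbol alone and has the highest mean signal over all arrays. All 10 were found among the 18194 genes with such a probe set and among the 14135 genes tested. Testing required a group mean of log2 4.40 or more, the 40th percentile of all values, in at least 1 group. The mean of 9 members reached it in all 9 groups, while that of Per2 did so in 4 of 9, so its signal lies near the array background. The wild-type cells came from C57BL6/J embryos (day 15.5 per the labels, an earlier day per the study's methods), were cultured at 5% O2 and received new medium the day after plating. Control cells were collected at 0, 1, 8, 24 and 72 h after that change, and cells given MMS, which methylates DNA, at 40 µg/mL were collected at 1, 8, 24 and 72 h. Every group had 4 arrays apart from MMS at 72 h, which had 3. The replicates are called biological, but nothing states that they came from separate embryos, so p-values measure the spread between these arrays, and precision is limited by their number. Such cultures hold the mixed cells of an embryo without head and liver.

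The mammalian clock is a feedback loop of transcription that runs in nearly all cells, fibroblasts included. The proteins CLOCK and BMAL1, the product of Arntl, bind E-boxes in DNA and switch on the Per and Cry genes, whose proteins then block CLOCK and BMAL1. The nuclear receptors REV-ERBα (Nr1d1) and REV-ERBβ (Nr1d2), also switched on by CLOCK and BMAL1, repress Arntl, and Dbp is a direct output that acts on D-boxes. New serum in the medium is a known cue that sets the clocks of cultured fibroblasts, and Per1 is the member best known for an immediate response to it.

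The stretches below show where letters of these elements lie near the annotated starts of 4 members, so that each gene's values can be read beside its place in the loop. They are from RefSeq on GRCm38.p6, 5′ to 3′ on the gene's strand. The windows searched ran from 250 bases before to 50 bases after each start, on both strands, and 9 of the 10 members had at least 1 of 13 windows. The E-box CACGTG was found in 2 of the 13 member windows, of Per1 and Cry1, and in 7.15% of all 32851 windows. The related letters CACGTT (reverse complement AACGTG), called the E′-box, were in 3 of the 13, of Cry1, Cry2 and Nr1d1, and in 4.68% of all. The D-box TTANNTAA was in 1 of the 13, of Per3, and in 6.0% of all. The REV-ERB element (TAGGTCA or TGGGTCA) was in 1 of the 13, of Arntl, and in 6.45% of all. The cAMP response element TGACGTCA was in no member's window and in 1.79% of all. Capitals mark the E-box at -166 of Per1, the E′-box at -79 and the E-box at -60 of Cry1, the D-boxes at -205 and -158 of Per3, and the REV-ERB element at 31 of Arntl, counted in bases from the start.
Per1, chr11:69098736-69098835, plus strand: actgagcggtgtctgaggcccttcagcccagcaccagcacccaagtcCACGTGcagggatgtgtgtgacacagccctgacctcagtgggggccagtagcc
Cry1, chr10:85185072-85185171, minus strand: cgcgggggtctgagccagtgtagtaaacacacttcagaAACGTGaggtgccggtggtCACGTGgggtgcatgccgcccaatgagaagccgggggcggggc
Per3, chr4:151044795-151044894, minus strand: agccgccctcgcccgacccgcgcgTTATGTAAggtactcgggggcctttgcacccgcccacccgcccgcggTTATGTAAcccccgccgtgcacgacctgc
Arntl, chr7:113207529-113207558, plus strand: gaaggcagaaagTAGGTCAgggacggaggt
These are matches of letters and not measured sites, and the arrays carry no information on binding.

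Some arrays stood apart, and the values below are given with that in view. The main axis of variation, with 44.5% of the variance, separated the 8 h arrays of both treatments from the rest. The mean log2 signal of 14 macrophage markers was 8.10 to 8.23 in control and 7.39 to 7.65 in MMS-treated cells at 8 h, against 4.37 to 4.60 in all other arrays apart from control 0 h replicate 3 (5.71) and MMS at 24 h (4.85 to 5.16). Of the 13 macrophage markers tested, 13 were higher in control cells at 8 h than at 0 h, and at 8 h 9 were lower and 1 higher with MMS. Lyz2, Tyrobp and C1qa of that list were among those high at 8 h. The time of 8 h, the make-up of the 8 h cultures and any difference in their culture or hybridization can therefore not be told apart. The part of macrophages in the 8 h results was not tested. With MMS at 24 h the markers disagreed, with 3 called higher, 0 lower and 10 not called. Cd68 (8.40 against 4.95 in control cells), Csf1r (7.77 against 5.85) and Cd14 (8.28 against 5.54) were raised. Lyz2 (5.71 against 5.77), Tyrobp (4.45 against 4.65) and C1qa (3.69 against 3.82) were not. The 13 fibroblast markers measured were above the limit in every array, and at 8 h 11 were lower with MMS. With MMS 12 were lower and 1 higher at 24 h, where their mean was 10.57 to 11.01 against 11.73 to 11.85 in control cells, and 6 were lower at 72 h (11.96 to 12.14 against 12.50 to 12.64). In control cells at 8 h 7 were lower and 4 higher than at 0 h. Intestinal markers were high in 4 arrays, all of them replicate 3 (control 0 h, MMS 1 h, MMS 24 h and MMS 72 h), with means of 6.22 to 10.93. They reached 5.82 in control 1 h replicate 3, 5.53 in control 24 h replicate 4 and 5.29 in control 1 h replicate 4. Results given without the arrays with intestinal transcripts leave out only the first 4. In such bulk RNA, fewer cells of a type and less RNA per cell cannot be told apart.

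Per1, the gene of an inhibitor of CLOCK and BMAL1, rose within 1 h of the medium change and was back near its starting level at 24 h. In control cells its log2 signal was 6.67, 6.93, 6.22 and 6.70 at 0 h, 7.73, 7.85, 7.82 and 7.93 at 1 h, and 7.19, 7.12, 7.46 and 7.20 at 8 h. It was 7.12, 7.07, 6.55 and 6.61 at 24 h and 6.96, 6.71, 6.68 and 6.75 at 72 h. All arrays at 1 h lay above all arrays of the other control times, the mean at 8 h came next, and those at 0, 24 and 72 h overlapped. The rise from 0 to 1 h was 2.30-fold (log2 difference 1.20 ± 0.14, standard error, adjusted p = 3.3e-07 by limma), and 1.06 without the arrays with intestinal transcripts. Per1 was the only member called at 1 h, where 7.22% of all genes tested were called higher and 4.38% lower. Nr1d2 was called as well without the arrays with intestinal transcripts (0.28, adjusted p = 0.048). At 8 h Per1 was still 1.53-fold above 0 h (0.61 ± 0.14, adjusted p = 0.00053).

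**Figure D1:**
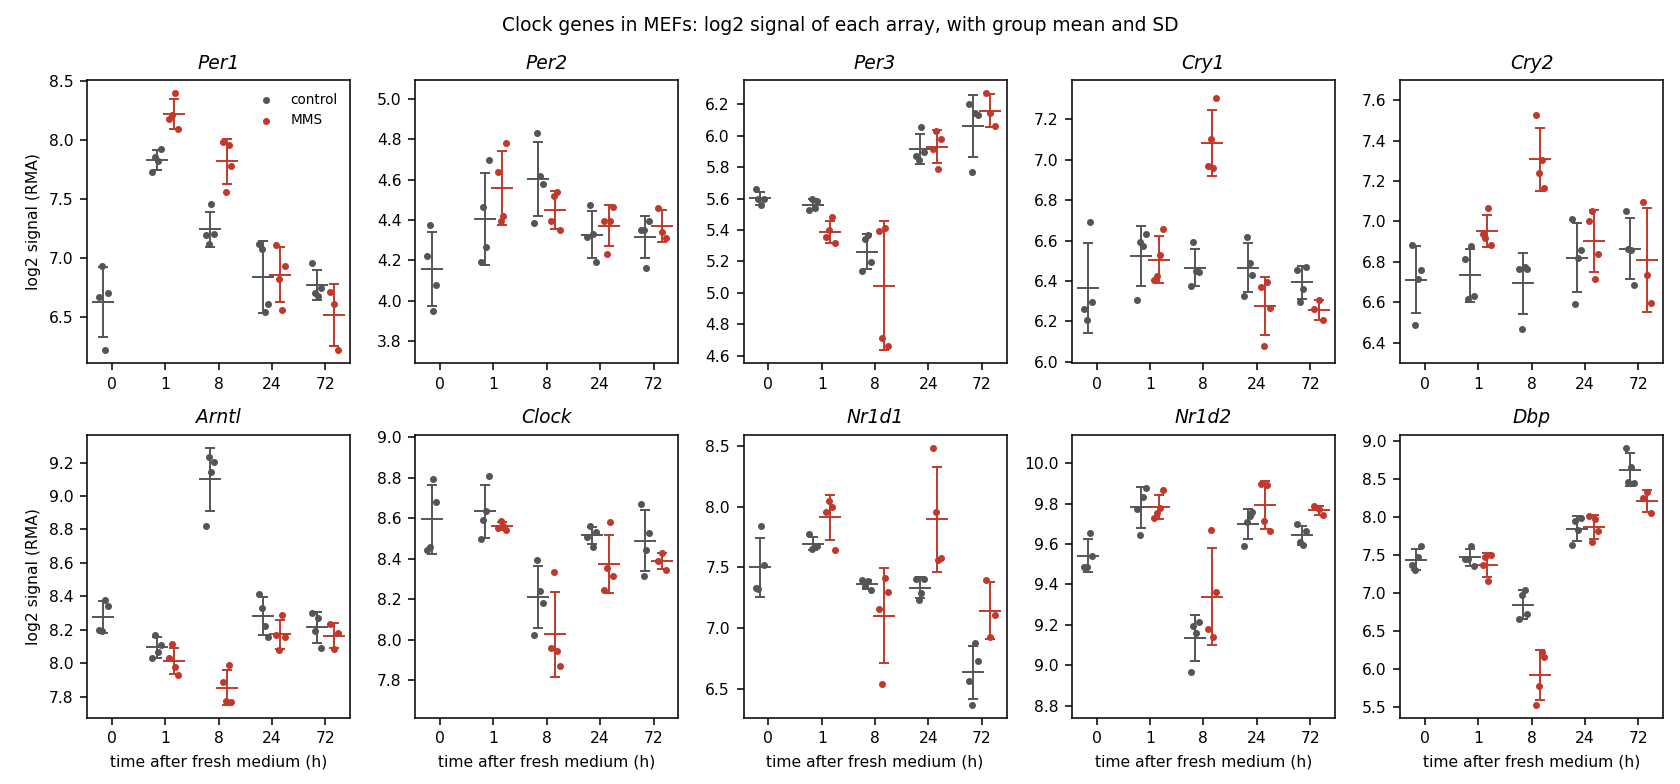
Log2 signal of each array (points) for the 10 clock genes against time after the medium change, in control (grey) and MMS-treated cells (red), with the group mean and SD; each panel has its own scale. Per1 peaks at 1 h, Arntl stands apart in control cells at 8 h, and Dbp is lowest at 8 h and highest in control cells at 72 h.

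The other Period genes gave smaller differences that depended on the probe set. Per3 ranged from 5.56 to 5.66 in control cells at 0 h, from 5.14 to 5.37 at 8 h and from 5.77 to 6.20 at 72 h. Its difference from 0 h was -0.34 ± 0.12 at 8 h (adjusted p = 0.015) and 0.46 ± 0.12 at 72 h (adjusted p = 0.0027). With the mean of its 6 probe sets these became 0.07 (adjusted p = 0.40) and 0.30, but 3 of the 6 reached the limit in at most 1 group and so read near background. The other Per3 probe sets above the limit in all groups gave 0.14 ± 0.14 and -0.16 ± 0.13 at 8 h. At 72 h they gave 0.28 ± 0.14 and 0.57 ± 0.13. Per2 ranged from 3.95 to 4.37 at 0 h and from 4.38 to 4.83 at 8 h, a difference of 0.45 ± 0.11 (adjusted p = 0.00061) that became -0.02 with the mean of its 3 probe sets. Its other probe sets gave -0.32 ± 0.14 and -0.18 ± 0.11. Per2 passed the filter only through its groups at 1 and 8 h, and its mean at 0 h, 4.16, was below the limit. Its call at 8 h is thus not independent of the filter.

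Cry1 and Cry2, the genes of the partners of the PER proteins, gave no called difference from 0 h at any control time with all arrays weighted equally and the deposited values. Cry1 was called higher with limma's array weights at 1 h (0.24, adjusted p = 0.0093), 8 h (0.20, adjusted p = 0.040) and 24 h (0.23, adjusted p = 0.022), and at 8 h also with a repeated quantile normalization (0.30, adjusted p = 0.0024) and without control 0 h replicate 3 (0.21, adjusted p = 0.048). In the fit of all arrays the largest of these differences in size was 0.16 for Cry1, at 1 h, with a 95% interval of -0.04 to 0.36, and 0.15 for Cry2, at 72 h, with an interval of -0.07 to 0.38. The control means of Cry1 ran from 6.36 at 0 h to 6.53 at 1 h and those of Cry2 from 6.69 at 8 h to 6.87 at 72 h, and no neighbours in either order differed beyond their spread.

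Arntl, which encodes BMAL1, was higher in control cells at 8 h than at any other time. Its log2 signal was 8.20, 8.19, 8.38 and 8.34 at 0 h, 8.03, 8.17, 8.07 and 8.11 at 1 h, and 8.82, 9.23, 9.15 and 9.20 at 8 h. It was 8.42, 8.33, 8.22 and 8.16 at 24 h and 8.30, 8.19, 8.27 and 8.09 at 72 h. All 4 arrays of 8 h were above all others and no other time was called against 0 h. The difference from 0 h was 1.77-fold (0.82 ± 0.08, adjusted p = 2.2e-10). The second probe set of Arntl, of lower signal (group means 5.08 to 5.65), did not show this rise (-0.12 ± 0.13), and the mean of both probe sets rose by 0.35.

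Clock, the partner of Arntl, was lower at 8 h on all 4 of its probe sets. It ranged from 8.45 to 8.80 at 0 h and from 8.02 to 8.39 at 8 h, without overlap (-0.39 ± 0.10, adjusted p = 0.00096). The other probe sets gave -0.92 ± 0.09, -0.23 ± 0.10 and -0.73 ± 0.12, the last of them with arrays of 3.87 to 3.93 at 8 h, below the limit.

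The receptor genes differed in when they were lowest. Nr1d2 was lowest at 8 h, with 9.48 to 9.66 at 0 h, 8.97 to 9.21 at 8 h and 9.59 to 9.76 at 24 h. The fall at 8 h was -0.41 ± 0.08 (adjusted p = 9.2e-05). It was far larger on its second probe set, which read 5.95, 5.97, 6.14 and 6.39 at 0 h and 3.68, 4.28, 3.95 and 4.23 at 8 h (-2.08 ± 0.15), below the limit of 4.40 in all 4 arrays, so that the size of this fall is not well measured. With the mean of both the fall was -1.24. Nr1d1 was lowest at 72 h. Its control arrays read 7.33, 7.32, 7.84 and 7.52 at 0 h, 7.31 to 7.39 at 8 h, 7.23 to 7.41 at 24 h, and 6.57, 6.37, 6.88 and 6.73 at 72 h. Those of 72 h lay below those of every other control time, and the difference from 0 h was 1.82-fold (-0.87 ± 0.17, adjusted p = 0.00013).

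Dbp, a transcription factor driven directly by CLOCK and BMAL1, had the widest range of group means in control cells among the 10 probe sets used. It read 7.36, 7.31, 7.47 and 7.62 at 0 h, 7.44, 7.45, 7.62 and 7.36 at 1 h, and 6.66, 6.97, 7.04 and 6.72 at 8 h. It then read 7.63, 7.95, 7.83 and 7.98 at 24 h and 8.91, 8.46, 8.65 and 8.44 at 72 h. Arrays of 8 h were below, and those at 72 h above, all arrays of the other control times. Against 0 h it was 1.51-fold lower at 8 h (-0.59 ± 0.13, adjusted p = 0.00026) and 2.26-fold higher at 72 h (1.18 ± 0.13, adjusted p = 1.8e-08), and its second probe set gave -0.66 ± 0.13 and 0.85 ± 0.13. The rise at 24 h (0.41 ± 0.13, adjusted p = 0.038) was called in 9 of 18 alternatives and not without the arrays with intestinal transcripts (adjusted p = 0.052), nor in turn without replicate 1, 2 or 3 at 0 h or replicate 2, 3 or 4 at 24 h (adjusted p = 0.060 to 0.12).

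**Figure D2:**
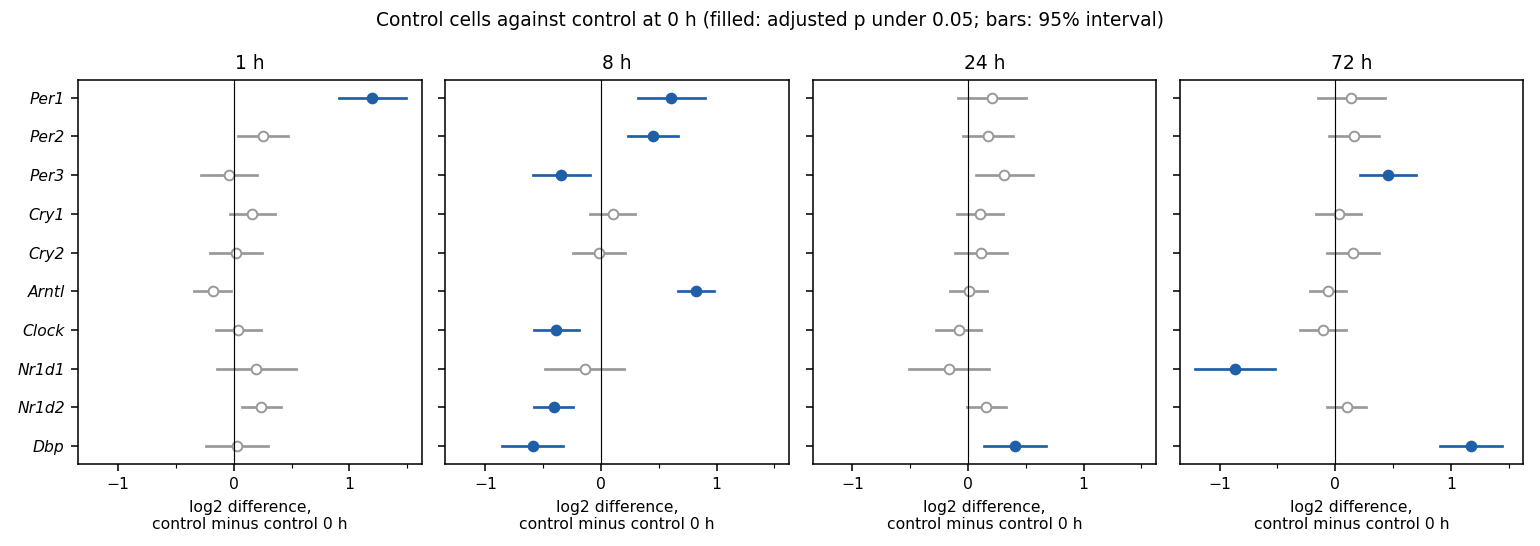
Log2 difference of control cells at 1, 8, 24 and 72 h from control cells at 0 h for each clock gene, with its 95% interval; filled points passed an adjusted p of 0.05 over all genes tested. Per1 alone is filled at 1 h, 7 genes at 8 h, Dbp alone at 24 h, and Per3, Nr1d1 and Dbp at 72 h. Per2, among those at 8 h, passed the filter only through its groups at 1 and 8 h.

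In control cells, 3 members were higher and 4 lower at 8 h than at 0 h, where 35.8% of all genes were called higher and 23.6% lower. Among the 3 is Per2, which passed the filter only through its groups at 1 and 8 h. At 24 h 1 member was higher and 0 were lower (2 with an unadjusted p under 0.05), beside 9.12% and 2.06% of all genes. At 72 h 2 were higher and 1 lower, beside 21.8% and 16.3%. These 4 comparisons share the control arrays at 0 h. Between later times, 6 of the 10 differed between 1 and 8 h, 2 between 1 and 24 h, 4 between 1 and 72 h, 7 between 8 and 24 h, 8 between 8 and 72 h and 2, Nr1d1 and Dbp, between 24 and 72 h. Per2 was among those of 8 and 24 h and of 8 and 72 h. The shares of all genes called in either direction were 60.6%, 12.5%, 41.1%, 61.3%, 68.1% and 37.1%. Read against these shares, the counts are no result about the clock genes as a group.

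With MMS at 1 h no member passed the threshold in limma, and 0.361% of all genes were called higher and 0.0283% lower. The only member with an unadjusted p under 0.05 was Per1, which read 8.18, 8.21, 8.40 and 8.09 with MMS, all above the control arrays at 1 h (0.39 ± 0.14, adjusted p = 0.42). With limma's array weights it was called (0.40, adjusted p = 0.025).

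At 8 h MMS altered 6 members. Per1, Cry1, Cry2 and Nr1d2 were higher and Arntl and Dbp lower than in control cells, beside 28.7% of all genes called higher and 25.0% lower. Arntl changed most. It read 7.89, 7.78, 7.99 and 7.77 with MMS, below every control array of Arntl at any time. The difference was 2.37-fold (-1.25 ± 0.08, adjusted p = 2.2e-14), -0.36 ± 0.13 on the second probe set and -0.80 with the mean of both. The Arntl stretch above holds the letters of a REV-ERB element. At 8 h the REV-ERB genes differed by -0.26 (Nr1d1, adjusted p = 0.21) and 0.21 (Nr1d2, adjusted p = 0.036, kept in 12 of 17 alternatives). A link of these letters or these genes to the fall of Arntl was not tested.

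Dbp moved the same way as Arntl at 8 h. It read 5.53, 5.78, 6.22 and 6.17 with MMS against 6.66 to 7.04 in control cells, with no overlap. It was 1.90-fold lower (-0.92 ± 0.13, adjusted p = 4.7e-07), and its second probe set gave -0.54 ± 0.13.

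Of the inhibitor genes, Per1, Cry1 and Cry2 were higher, while Per2 (-0.15) and Per3 (-0.21) were not called. Each of the 3 higher genes has an E-box or E′-box in its window, as has Nr1d1, which was not higher. Per3 has neither, and no window of Per2 was available. Nr1d2, also called higher, has none of the letters searched, nor has Dbp, which was lower, or Clock, which was not called. A link between these letters and the MMS differences was not tested. Per1 read 7.98, 7.56, 7.95 and 7.78 with MMS against 7.12 to 7.46 in control cells (1.49-fold, 0.58 ± 0.14, adjusted p = 0.0010). Cry1 read 6.97, 7.10, 6.96 and 7.31 against 6.38, 6.59, 6.45 and 6.44 (1.54-fold, 0.62 ± 0.10, adjusted p = 2.5e-06). Cry2 read 7.53, 7.24, 7.30 and 7.16 against 6.77, 6.47, 6.77 and 6.76 (1.53-fold, 0.62 ± 0.11, adjusted p = 2.0e-05). In each of the 3 genes all MMS arrays lay above all control arrays, and the 8 h MMS arrays of Cry1 and Cry2 were the highest of any group.

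Nr1d2 was higher by only 0.21 ± 0.08 (adjusted p = 0.036), and its arrays overlapped. It was not called without MMS replicate 2 (0.10, adjusted p = 0.28), MMS replicate 4 (0.20, adjusted p = 0.070) or control replicate 1 (0.15, adjusted p = 0.15), nor with array weights (0.17, adjusted p = 0.074) or a model of these groups alone (adjusted p = 0.18), and was kept in 12 of 17 alternatives. Per2, Per3, Clock and Nr1d1 were not called, with differences of -0.15, -0.21, -0.18 and -0.26 and standard errors of 0.10 to 0.17. Clock was called lower with array weights (-0.24, adjusted p = 0.021), with the mean of its probe sets (-0.21, adjusted p = 0.0038), without MMS replicate 2 (-0.28, adjusted p = 0.010) and without control replicate 1 (-0.24, adjusted p = 0.043). Per3 was called lower without MMS replicate 1 (-0.33, adjusted p = 0.019) or 3 (-0.34, adjusted p = 0.016). The MMS arrays of Nr1d1 spread widely, from 6.54 to 7.42. Macrophage and fibroblast markers were lower with MMS at 8 h, as given above, and their part in these differences was not tested.

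**Figure D3:**
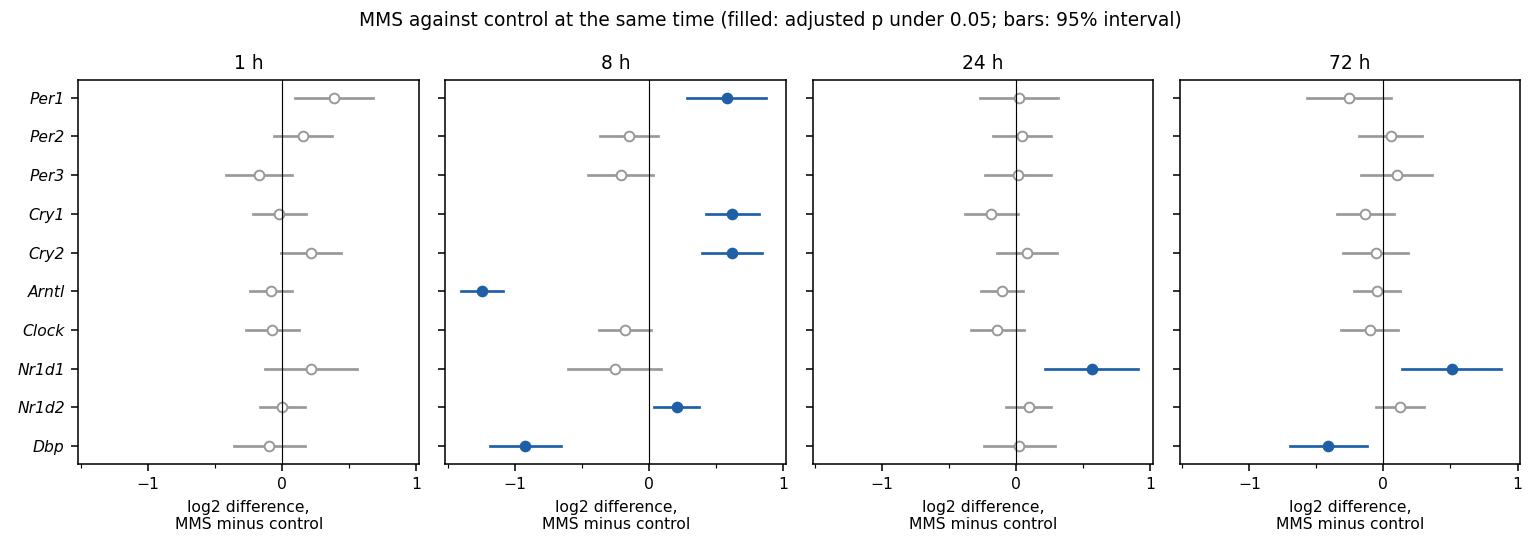
Log2 difference of MMS-treated from control cells at 1, 8, 24 and 72 h for each clock gene, with its 95% interval; filled points passed an adjusted p of 0.05 over all genes tested. No gene is filled at 1 h, 6 are at 8 h, Nr1d1 alone at 24 h, and Nr1d1 and Dbp at 72 h.

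At 24 h 1 member was higher with MMS and 0 were lower (1 member in all with an unadjusted p under 0.05; 0 to 3 lower under the alternatives), beside 25.0% and 19.4% of all genes. This was Nr1d1, the REV-ERBα gene. It read 8.49, 7.96, 7.56 and 7.58 with MMS against 7.41, 7.23, 7.29 and 7.41 in control cells. All MMS arrays were above all controls, but they spread over almost a whole log2 unit. The difference was 1.48-fold (0.56 ± 0.17, adjusted p = 0.0069), and 0.36 (adjusted p = 0.063) without MMS replicate 1. Without the arrays with intestinal transcripts it was 0.67 (adjusted p = 0.0018). Fibroblast markers were lower with MMS at 24 and 72 h, as given above, and their part in the differences at these times was not tested. The genes changed at 8 h had differences of -0.11 (Arntl), 0.02 (Dbp), 0.02 (Per1), -0.19 (Cry1), 0.08 (Cry2) and 0.09 (Nr1d2), none of them called. Cry1 was called lower without the arrays with intestinal transcripts (-0.23, adjusted p = 0.046). It was also called with array weights (-0.24), arrays centred on the median (-0.27) and a repeated quantile normalization (-0.22), at adjusted p of 0.013 to 0.033. Clock (-0.14, adjusted p = 0.25) was called lower with the mean of its probe sets (-0.31, adjusted p = 7.5e-05), array weights (-0.20, adjusted p = 0.022) and centred arrays (-0.22, adjusted p = 0.043). Arntl was called lower with centred arrays (-0.19, adjusted p = 0.032).

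At 72 h 1 member was higher and 1 lower, beside 10.1% and 10.4% of all genes. Nr1d1 read 7.39, 6.93 and 7.11 with MMS, above the control arrays of 6.37 to 6.88 (1.42-fold, 0.51 ± 0.18, adjusted p = 0.046). Dbp read 8.25, 8.32 and 8.05, below the control arrays of 8.44 to 8.91 (1.33-fold lower, -0.41 ± 0.14, adjusted p = 0.034). Both calls are fragile, held in 9 and 12 of 17 alternatives, and neither was made without MMS replicate 3, the array with intestinal transcripts (0.53, adjusted p = 0.059, and -0.33, adjusted p = 0.15, after leaving out all such arrays). Nr1d1 was also not called without MMS replicate 1 (0.38, adjusted p = 0.23) or control replicate 1, 2 or 4 (adjusted p = 0.090, 0.15 and 0.058), and Dbp not without MMS replicate 1 (adjusted p = 0.061) or control replicate 1 or 3 (adjusted p = 0.14 and 0.069). Clock (-0.10, adjusted p = 0.60) was called lower with the mean of its probe sets (-0.19, adjusted p = 0.033).

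Whether the MMS effect itself differed between times was tested with interaction terms. Between 1 and 8 h it differed in 4 members, beside 41.3% of all genes. These were Arntl (-1.16 ± 0.11), Dbp (-0.83 ± 0.18), Cry1 (0.64 ± 0.14) and Cry2 (0.40 ± 0.16, adjusted p = 0.040). Between 8 and 24 h it differed in 6 members, beside 45.6%, and in 5 of the 6 changed at 8 h the effect moved back towards 0, while the change in Nr1d2 (-0.11 ± 0.12) was not called. It changed by 1.14 ± 0.11 in Arntl, 0.94 ± 0.18 in Dbp, -0.81 ± 0.14 in Cry1, -0.53 ± 0.16 in Cry2 and -0.56 ± 0.20 in Per1, and by 0.82 ± 0.24 in Nr1d1. Between 24 and 72 h no member was called in limma (1 with an unadjusted p under 0.05, Dbp), beside 29.0% of all genes.

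The probe sets used for 6 of the members have others beside them, 13 in all, which were read with the same model. With MMS at 8 h the second of Arntl gave -0.36 ± 0.13, that of Dbp -0.54 ± 0.13, and those of Clock -0.25 ± 0.09, 0.01 ± 0.10 and -0.43 ± 0.12. The last of Clock was below the limit in both groups. The second of Nr1d2 gave 0.41 ± 0.15, from a control mean of 4.04, below the limit, to 4.45. Those of Per3 above the limit in all groups gave -0.15 ± 0.14 and -0.47 ± 0.13, where the one used gave -0.21 ± 0.12. The rest of Per3, near background, gave -0.20 ± 0.11, -0.04 ± 0.15 and 0.18 ± 0.09. Those of Per2 gave 0.27 ± 0.14 and 0.11 ± 0.11, below the limit in both groups. At 24 h with MMS the 3 other probe sets of Clock gave -0.39 ± 0.09, -0.44 ± 0.10 and -0.29 ± 0.12, where the one used gave -0.14 ± 0.10. The second of Arntl gave 0.37 ± 0.13 there, against -0.11 ± 0.08. At 72 h with MMS the others of Clock gave -0.37 ± 0.10, -0.32 ± 0.11 and 0.02 ± 0.13, against -0.10 ± 0.10. The other Per3 probe sets above the limit in all groups gave 0.05 ± 0.15 and -0.33 ± 0.14 at 72 h, against 0.10 ± 0.13. Probe sets of a gene can read different transcript ends, and the levels of different probe sets were not compared.

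**Figure D4:**
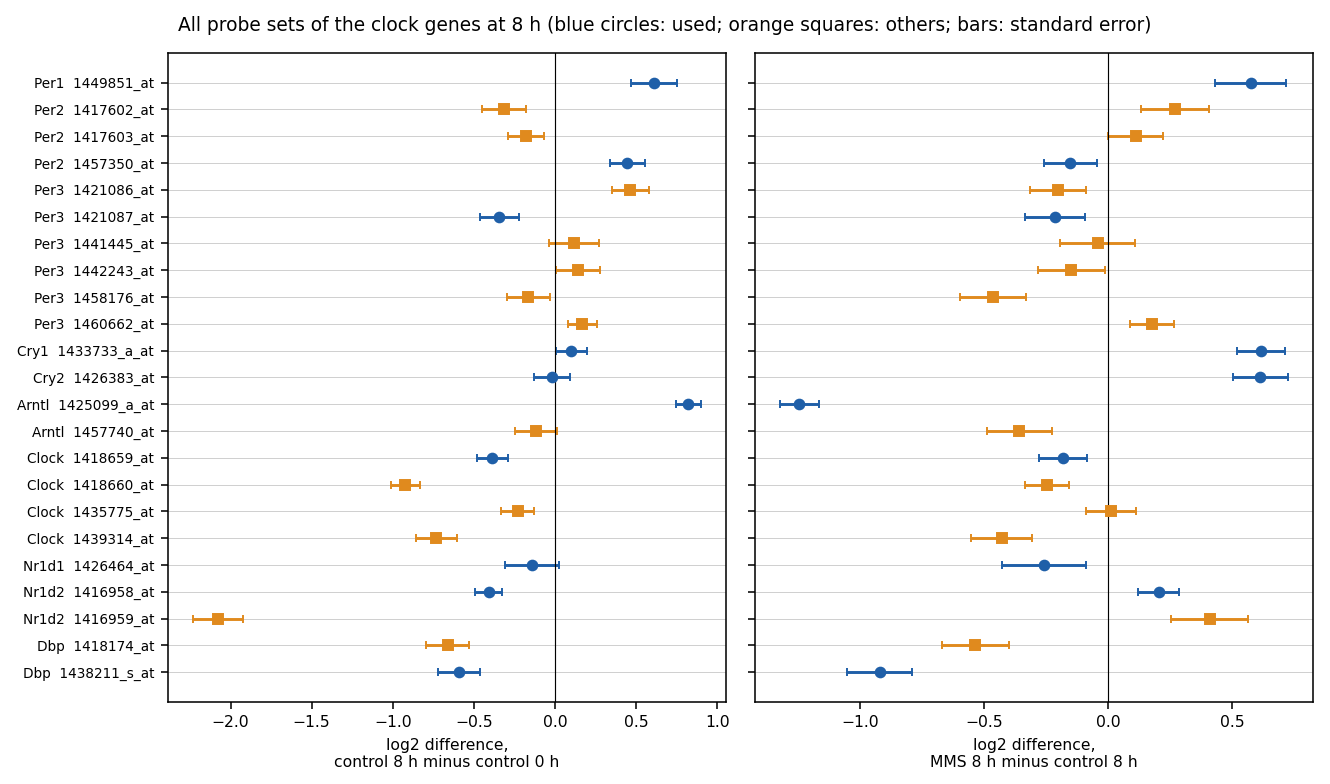
Log2 difference with its standard error for all 23 probe sets of the clock genes, for control cells at 8 h minus 0 h (left) and MMS minus control at 8 h (right); blue circles are the probe sets used and orange squares the others. The other Arntl probe set lies near 0 on the left at -0.12, and the second Nr1d2 probe set lies far from all others at -2.08.

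Further genes of the pathway came from 4 lists, of transcriptional partners of the loop, of proteins that modify or degrade clock proteins, of chromatin and RNA-binding cofactors, and of clock outputs. Of their 42 genes, 38 were tested. Each was read only on its probe set of highest mean, and the alternatives were run for the members only. With MMS 0 were called at 1 h by limma (4 with an unadjusted p under 0.05), while 14 were higher and 11 lower at 8 h, 11 and 7 at 24 h, and 6 and 9 at 72 h. All genes were called higher and lower in 28.7% and 25.0%, 25.0% and 19.4%, and 10.1% and 10.4% at these times. Their median log2 difference was 0.10 at 8 h, where that of all genes tested was 0.06. In control cells 5 were higher and 3 lower at 1 h than at 0 h, 15 and 9 at 8 h, 4 and 0 at 24 h (1 lower with an unadjusted p under 0.05), and 11 and 7 at 72 h. All genes were called in 7.22% and 4.38%, 35.8% and 23.6%, 9.12% and 2.06%, and 21.8% and 16.3%.

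With MMS at 8 h the largest rises in these lists were those of Sirt1, a deacetylase that acts on clock proteins (3.13-fold, 1.65 ± 0.13), Ciart, a repressor of CLOCK and BMAL1 (0.97 ± 0.10), and Tef, a relative of Dbp that binds the same D-boxes (0.67 ± 0.06). The largest falls were those of Pparg, a nuclear receptor of fat metabolism (-1.15 ± 0.14), Bhlhe40, which competes for E-boxes (-0.73 ± 0.09), and Sfpq, an RNA-binding partner of PER proteins (-0.72 ± 0.09). Dbp and Tef, both factors of D-boxes, thus had opposite signs at 8 h. All 6 had adjusted p-values from 4.2e-12 to 1.1e-07.

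At 24 h Prkaa2, a catalytic subunit of the energy sensor AMPK, was 2.98-fold higher with MMS (1.57 ± 0.16), Lpin1, of lipid synthesis, 2.53-fold (1.34 ± 0.10) and Pparg 2.31-fold (1.21 ± 0.14). Nfil3, the repressor that opposes DBP at D-boxes, was 2.38-fold lower (-1.25 ± 0.10), Tsc22d3, a target of glucocorticoids, 1.79-fold lower (-0.84 ± 0.10), and Rora, the activator that opposes REV-ERB at Arntl, 1.53-fold lower (-0.62 ± 0.08). At 72 h Prkaa2 (1.33 ± 0.18), Noct, a rhythmic phosphatase (1.29 ± 0.08), and Lpin1 (0.84 ± 0.11) were higher. Timeless, which acts at replication forks (-0.87 ± 0.10), Nampt, of NAD synthesis (-0.41 ± 0.13, adjusted p = 0.026), and Rora (-0.33 ± 0.09) were lower. So Nr1d1 was higher and Rora lower with MMS at both times. The Nr1d1 call was lost at 24 h without MMS replicate 1, and at 72 h it held in 9 of 17 alternatives. Arntl was not called in the main fit at 24 h (-0.11) or 72 h (-0.05), and a link between these genes was not tested.

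In control cells at 1 h the 5 list genes higher than at 0 h, named here after their values were seen, were Bhlhe40 (log2 difference 1.54), Noct (2.83-fold), Nfil3 (log2 difference 1.36), Csnk1e (0.47), a kinase of PER proteins, and Sirt1 (0.39), and the 3 lower were Rai1 (-0.44), Tef (-0.21) and Ep300 (-0.19). Bhlhe40, Noct and Nfil3 thus rose with Per1 at that time.

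The genes whose 9 group means followed a member's most closely were found by Pearson's r over 14125 other genes, as a description without a test. Those most like Per1 were Arid5a (r = 0.977), Atf3, a stress-induced transcription factor (0.971), and Gem, a small GTPase (0.963). Atf3 spanned group means of 5.75 to 11.60. Those most like Arntl were 2510002D24Rik (0.975), Ano6 (0.949) and Nr2f2 (0.938), and those most like Dbp were Wdr19 (0.991), Fbh1 (0.991) and Map3k2 (0.988). Those most like Nr1d1 were Gm17501 (0.962), Dusp14 (0.958) and Asl (0.929), and those most like Per2, which is near background, were Psg23 (0.903), Gnl3l (0.897) and Bicd2 (0.877). The points share their arrays.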

How the data were processed

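Expression of primary MEFs was measured on 35 Affymetrix mouse arrays of 9 groups. The deposited log2 values of 45101 probe sets were normalized by the authors with RMA (version not stated), which corrects background, quantile-normalizes across arrays and summarizes probes. RMA makes the arrays' distributions alike, so a change in total RNA is not seen. The values ranged from 2.44 to 14.62, with array medians of 4.98 to 5.09. The study's methods name the 430A 2.0 array, whereas the annotation used here, from the platform record, covers all 45101 probe sets. The 35 arrays hold no replicate 4 of MMS at 72 h.

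The annotation gave 1 symbol for 34958 probe sets, several for 932 and none for 9211, and the first class gives 18194 genes, each represented by the probe set with the highest mean. The gene identifiers of all 10 members were found in RefSeq. A linear model of all 35 arrays was fitted with limma 3.58.1 (R 4.3.3), leaving 26 residual degrees of freedom, with moderated variances. Two-sided p-values were adjusted for 14135 genes by the Benjamini-Hochberg method in each contrast, at a threshold of 0.05. It compared MMS with control cells at each time, control times with each other, and differences of the MMS effect between neighbouring times. Folds are differences of log2 means raised to base 2. The script was tested on simulated data.

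The members, the lists and the marker genes were chosen with earlier results of these data known. All members are given in every group. The rule names, of the pathway lists, the 3 called genes that rose most and the 3 that fell most per MMS contrast, and the 3 genes most like each of 5 members. Pathway genes that were not tested are not reported here. Alternatives, run for the members only, changed the normalization, filter, choice of probe set, weights, model and block, and left out arrays.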

Additional observations from a re-analysis of the deposited data

Results flagged for a closer look

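A sample far from the others of its group was found in 2 of the 80 groups of 4 arrays examined over the 10 clock genes, where chance gives about 1 in 20. Per3 read 5.77 in control 72 h replicate 2, below the other arrays of 6.13 to 6.20. Cry2 read 6.47 in control 8 h replicate 2, below the others of 6.76 to 6.77.

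The MMS effect differed between times by the interaction test in limma for several members. From 1 to 8 h it changed by 0.64 in Cry1, 0.40 in Cry2, -1.16 in Arntl and -0.83 in Dbp on the log2 scale. From 8 to 24 h it changed by -0.56 in Per1, -0.81 in Cry1, -0.53 in Cry2, 1.14 in Arntl, 0.82 in Nr1d1 and 0.94 in Dbp. The mean signal of macrophage markers was 8.10 to 8.23 in control and 7.39 to 7.65 in MMS-treated cells at 8 h, and its part in these differences was not tested.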

How the results depend on the processing

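Of the 31 called differences of the clock genes among 110, 22 kept their direction and their call under every alternative run for them. Among differences called with or without the change of setting, the sign turned only with averaging the probe sets of each gene (signs of small uncalled differences also turned elsewhere), with log2 differences of -0.19 for Clock at 1 h, -0.016 for Per2 and 0.065 for Per3 at 8 h, and 0.17 for Clock at 72 h in control cells against 0 h, which follows from probe sets of 1 gene that differ. The numbers of clock genes called higher with MMS were 1 at 1 h with array weights, and at 72 h 0 with array weights, with no filter and without the arrays with intestinal transcripts. The numbers called lower with MMS at 24 h were 2 with array weights, 3 with arrays centred on the median, and 1 each with a repeated quantile normalization, with the mean of all probe sets and without the arrays with intestinal transcripts. Lower at 72 h were 2 with the mean of all probe sets and 0 without the arrays with intestinal transcripts. Higher in control cells at 1 h than at 0 h were 4 with array weights, and 2 each with the 60th percentile filter, with centred arrays, with the mean of all probe sets, without the 8 h arrays and without the arrays with intestinal transcripts. Lower were 1 with the repeated normalization and 1 with the mean of all probe sets. Higher at 24 h than at 0 h were 4 with array weights, 2 without the 8 h arrays, and 0 with the repeated normalization and without the arrays with intestinal transcripts. The causes were not tested.

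Leaving out each array in turn gave 0 to 1 genes higher with MMS at 24 h and at 72 h, 0 to 1 lower at 72 h, 1 to 2 higher in control cells at 1 h, 0 to 1 higher at 24 h, and 1 to 2 with a higher MMS effect at 8 h than at 1 h. In that last count Cry2 was lost without any of 8 arrays. Per1's change of effect from 8 to 24 h was lost without MMS 24 h replicate 3, MMS 8 h replicate 1 or 3, or control 24 h replicate 1 or 2 (-0.51 to -0.46). With the 60th percentile filter Per2 was not tested.

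Between arrays of equal replicate number, correlations of the deviations from the group means ran from -0.26 to 0.33. In no contrast did every pair exceed 0.1, and the main model used no pairing, but this check cannot exclude one. For MMS against control at 1 h the correlations were 0.09 to 0.31. The array of the same number was the best match in 3 of 4 pairs there and at 8 h, and in 0 or 1 in each other contrast. With the replicate block 4 clock genes were higher and 2 lower with MMS at 8 h, and no call of a clock gene changed. The number of arrays and, for Per2, a signal near the background limit the precision.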
